A study of Homo sapiens with 12 samples.

Results

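SGCZ, SRRM4, PTPRN2, NLGN1, PDE4D, FGF13 and PPP3CA are 7 long or neural human genes that were chosen by their numbers of NONO peaks, as genes with fewer peaks in cells treated with SKBG-1(R) than in cells treated with DMSO. Their peaks were all deposited eCLIP peaks that the authors annotated to 1 of these gene names. There were 262 such peaks of 26351, or 0.994% of all peaks in 6 lists. NONO eCLIP maps where the RNA-binding protein NONO touches RNA: UV light links protein to RNA, NONO is immunoprecipitated, and the RNA attached to it is sequenced together with an input library. The cells were 22Rv1, a human prostate cancer cell line, grown for 40 h, treated for 4 h and crosslinked with 400 mJ of UV. The 3 groups were 20 µM SKBG-1(R) in 0.04% DMSO, 20 µM SKBG-1(S) in 0.04% DMSO, and 0.04% DMSO alone, each with 2 replicate immunoprecipitations, and the labels do not say whether replicates were separate cultures. 22Rv1 is a single cell line, and all groups share it and the solvent.

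NONO belongs to a small family of nuclear proteins with paired RNA recognition motifs. It is known as a core component of the paraspeckle, a nuclear body for which the noncoding RNA NEAT1 is the scaffold, and takes part in transcription and in processing of nascent RNA. Genes with neural functions are often very long and consist mostly of intron, so that an intron-binding protein has a long stretch of nascent RNA to meet on each of them. SRRM4, a neural splicing factor that promotes inclusion of microexons, is also known from prostate tumours that acquire neuroendocrine features.

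The lists differed widely in length. They had 1953 and 14847 peaks with SKBG-1(R), 1237 and 3967 with SKBG-1(S), and 669 and 3678 with DMSO. The groups overlapped in length (exact two-sided permutation test on log2 list length, p = 0.667 for each of the 3 pairs of groups, where the smallest possible p with 2 lists against 2 is 0.333). Numbers of peaks are therefore given beside peaks per 10000 peaks of the same list. The files hold peaks and not reads, so the depth of each library is unknown, and every listed peak had passed the authors' minimum of 3 for both the −log10 p and the log2 enrichment over input. Of 2 short sets of marker genes, 2 of 8 for prostate luminal cells and 0 of 7 for neuroendocrine cells held a peak in any list. This describes NONO peaks and not expression. The short neuroendocrine set leaves out SRRM4 and ONECUT2, which held peaks and belong to a longer list counted further below. Fewer transcripts in the cells and less NONO on each transcript cannot be told apart in these bulk lists.

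The label under which the genes were grouped holds only in part. PTPRN2 held more peaks by number in SKBG-1(R) replicate 2 than in DMSO replicate 2, 67 against 37, and fewer in replicate 1, 1 against 4, while per 10000 peaks both SKBG-1(R) lists were lower. PPP3CA had 6 against 6 peaks in replicate 1, and FGF13 1 against 1 in replicate 2. FGF13 also overlapped per 10000 peaks, at 5.12 in SKBG-1(R) replicate 1 and 2.72 in DMSO replicate 2. SRRM4 spans 182 kb and ranked 241 of 1620 genes with a peak by length, so it belongs through its neural role. The other 6 genes span 325 to 1553 kb, against a median of 55.1 kb over the 1620 genes, and PDE4D was the longest of them all.

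Nearly all peaks on these genes lay in introns, where the base sequence could be read for few of them. The next 2 peaks are shown because annotated antisense transcripts cover them, and they stand for both patterns below: a PTPRN2 peak found only in an SKBG-1(R) list and an SRRM4 peak found only in a DMSO list. Each runs 5′ to 3′ on the strand of the named gene in GRCh38, read from GENCODE 29 transcripts of AC078942.1 for PTPRN2 and AC084361.1 for SRRM4, with the peak in capitals and the flanks in lower case.
PTPRN2, chr7:158539578-158539741, minus strand: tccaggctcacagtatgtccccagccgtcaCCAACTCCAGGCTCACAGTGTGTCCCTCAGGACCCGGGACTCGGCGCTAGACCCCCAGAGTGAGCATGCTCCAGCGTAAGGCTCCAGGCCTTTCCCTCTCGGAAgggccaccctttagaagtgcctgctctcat
SRRM4, chr12:119036886-119036967, plus strand: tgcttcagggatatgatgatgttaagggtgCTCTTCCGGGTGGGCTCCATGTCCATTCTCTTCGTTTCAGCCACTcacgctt
The PTPRN2 peak (104 nt, 63.5% G or C) had a log2 enrichment of 3.14 in SKBG-1(R) replicate 2. The SRRM4 peak (45 nt, 55.6% G or C) had a log2 enrichment of 3.86 in DMSO replicate 2, and neither overlapped a peak of any other list.

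Together the 7 genes had 8 and 70 peaks with SKBG-1(R), 26 and 58 with SKBG-1(S), and 23 and 77 with DMSO. Per 10000 peaks these were 41.0 and 47.1 with SKBG-1(R), 210.2 and 146.2 with SKBG-1(S), and 344 and 209.4 with DMSO. Both SKBG-1(R) lists lay below the other 4 lists, while the SKBG-1(S) and DMSO lists overlapped by this measure. Since the genes were picked for this difference, it describes the choice and is not tested. PTPRN2 supplied 135 of the 262 peaks, so the total was also taken without it. The other 6 genes then had 7 and 3 peaks with SKBG-1(R), 19 and 39 with SKBG-1(S), and 19 and 40 with DMSO. Among only the 669 peaks with the highest −log10 p of each list, the 7 genes had 4 and 0 peaks with SKBG-1(R), 15 and 8 with SKBG-1(S), and 23 and 13 with DMSO.

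**Figure D1:**
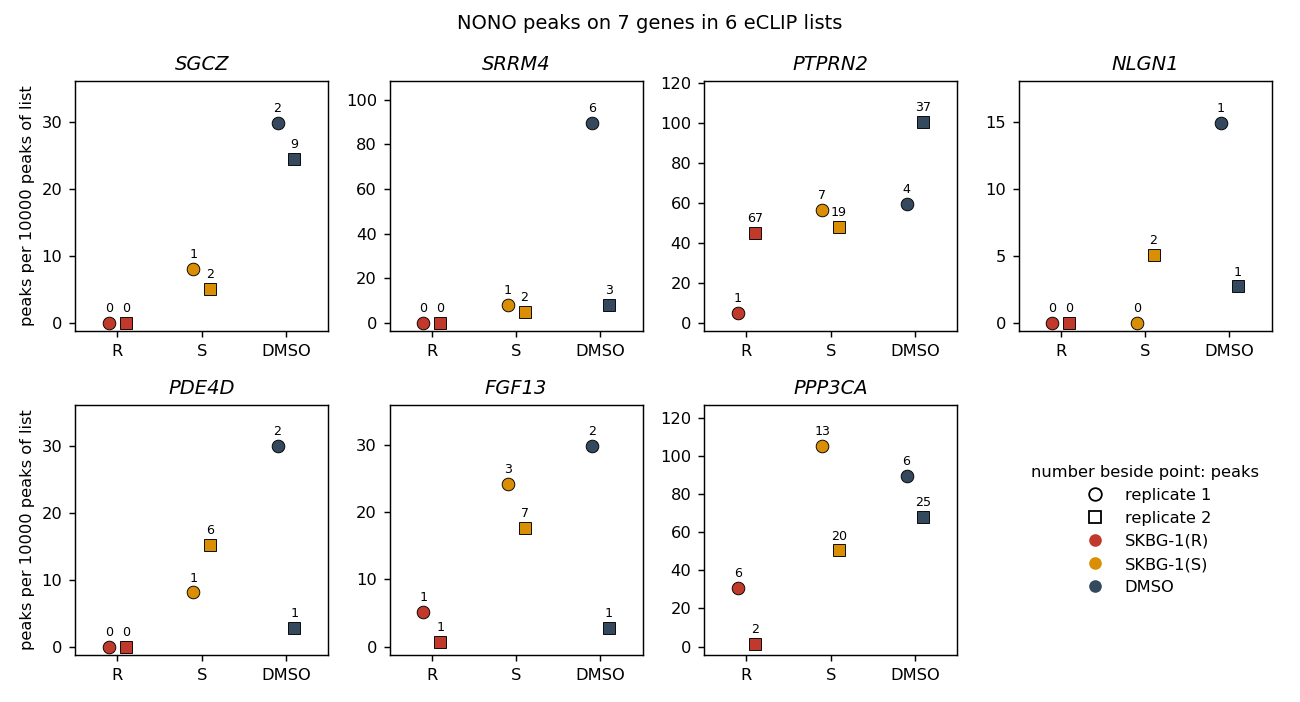
Peaks per 10000 peaks of the list (y axis, linear, own scale per gene) for each of the 7 genes in SKBG-1(R), SKBG-1(S) and DMSO lists. Circles are replicate 1, squares replicate 2, and the number beside each point is the number of peaks; SGCZ, SRRM4, NLGN1 and PDE4D had 0 peaks in both SKBG-1(R) lists, while PTPRN2 had 67 in the second.

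A limma fit over the 478 genes with at least 10 peaks in all lists gave log2 differences in peaks per 10000, with a prior count of 2. In SKBG-1(R) against DMSO the background of this fit was 0% of the 478 genes called at an adjusted p under 0.05, and 15 genes (3.14%) at an unadjusted p under 0.05. Without SKBG-1(R) replicate 1 the fit called 23 genes, all of them higher with SKBG-1(R). Both SKBG-1(R) lists lay below both DMSO lists for 45 of the 478 genes (9.41%), and for 5 of the 6 genes tested here, all but FGF13. That count follows from how the genes were picked. NLGN1 had 4 peaks in all and was not tested.

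SGCZ encodes zeta-sarcoglycan, a membrane protein of the complex that joins dystrophin to the cell surface. It is on the minus strand of chromosome 8 from 14089864 to 15238339 (ENSG00000185053). It had 0 and 0 peaks with SKBG-1(R), 1 and 2 with SKBG-1(S), and 2 and 9 with DMSO. Per 10000 peaks it had 6.56 ± 2.15 with SKBG-1(S) and 27.2 ± 3.84 with DMSO (SD, n = 2 each). By this measure the 3 groups did not overlap, while by number SKBG-1(S) and DMSO met at 2 peaks. Of all 478 tested genes, SKBG-1(R) lay below DMSO in this way for 9.41%, SKBG-1(S) below DMSO for 4.81% and SKBG-1(R) below SKBG-1(S) for 16.3%. SGCZ was picked for having fewer peaks with SKBG-1(R) than with DMSO. The fitted log2 difference was −2.80 for SKBG-1(R) against DMSO, a value that depends on the prior count because both SKBG-1(R) lists had no peak. Its 14 peaks fell in 14 separate regions, each found in 1 list alone. About 1.06 kb from the gene start, however, each SKBG-1(S) list and each DMSO list had 1 peak, next to one another in a stretch of 622 nt. Of the DMSO peaks, 9 of 11 lay beyond 10 kb of the start and the farthest at 220.2 kb.

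SRRM4 lies on the plus strand of chromosome 12 from 118981495 to 119163051 (ENSG00000139767). It had 0 and 0 peaks with SKBG-1(R), 1 and 2 with SKBG-1(S), and 6 and 3 with DMSO. The DMSO lists themselves differed, at 89.7 and 8.16 peaks per 10000, and the lower of them was close to the SKBG-1(S) values of 8.08 and 5.04. The fitted log2 difference was −2.93 for SKBG-1(R) against DMSO, −1.48 without DMSO replicate 1 and −4.37 without DMSO replicate 2. A stretch of 10702 nt about 40.5 kb from the gene start carried 8 of the 12 peaks, with 1 and 1 with SKBG-1(S) and 5 and 1 with DMSO. The median log2 enrichment of SRRM4 peaks was 3.72 with SKBG-1(S) and 3.72 with DMSO. On all other genes it was 3.76 and 3.64 in the SKBG-1(S) lists, and 3.72 and 3.59 in the DMSO lists.

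PDE4D encodes a phosphodiesterase that breaks down cAMP. It lies on the minus strand of chromosome 5 from 58969038 to 60522120 (ENSG00000113448). It had 0 and 0 peaks with SKBG-1(R), 1 and 6 with SKBG-1(S), and 2 and 1 with DMSO. SKBG-1(S) had more peaks than DMSO by number, 7 against 3, and the DMSO lists, at 29.9 and 2.72 per 10000, enclosed both SKBG-1(S) lists. The log2 difference was −1.80 for SKBG-1(R) against DMSO, −0.68 without DMSO replicate 1 and −2.92 without DMSO replicate 2. All 10 peaks lay between 629.6 and 988.1 kb from the start, deep inside the gene, and none overlapped a peak of another list. No peak of PDE4D reached a log2 enrichment of 4, the highest being 3.92.

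NLGN1 encodes neuroligin 1, a postsynaptic adhesion protein that binds neurexins. It lies on the plus strand of chromosome 3 from 173396284 to 174286644 (ENSG00000169760). It had 0 and 0 peaks with SKBG-1(R), 0 and 2 with SKBG-1(S), and 1 and 1 with DMSO. The 4 peaks stood in 4 separate regions between 23.1 and 690.0 kb from the gene start. With this few peaks a difference between groups was not detectable.

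Absence from both SKBG-1(R) lists with a peak in both DMSO lists was found for 4 of the 478 tested genes (0.837%), and 3 of the 4 were SGCZ, SRRM4 and PDE4D. This too is part of how the genes were picked. The −log10 p was under 5 for 10 of 14 peaks of SGCZ, 10 of 12 of SRRM4, 9 of 10 of PDE4D and 3 of 4 of NLGN1, beside 71 of 135 of PTPRN2, 6 of 15 of FGF13 and 20 of 72 of PPP3CA. On all other genes 29.9% to 56.8% of the peaks of a list were under 5.

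**Figure D2:**
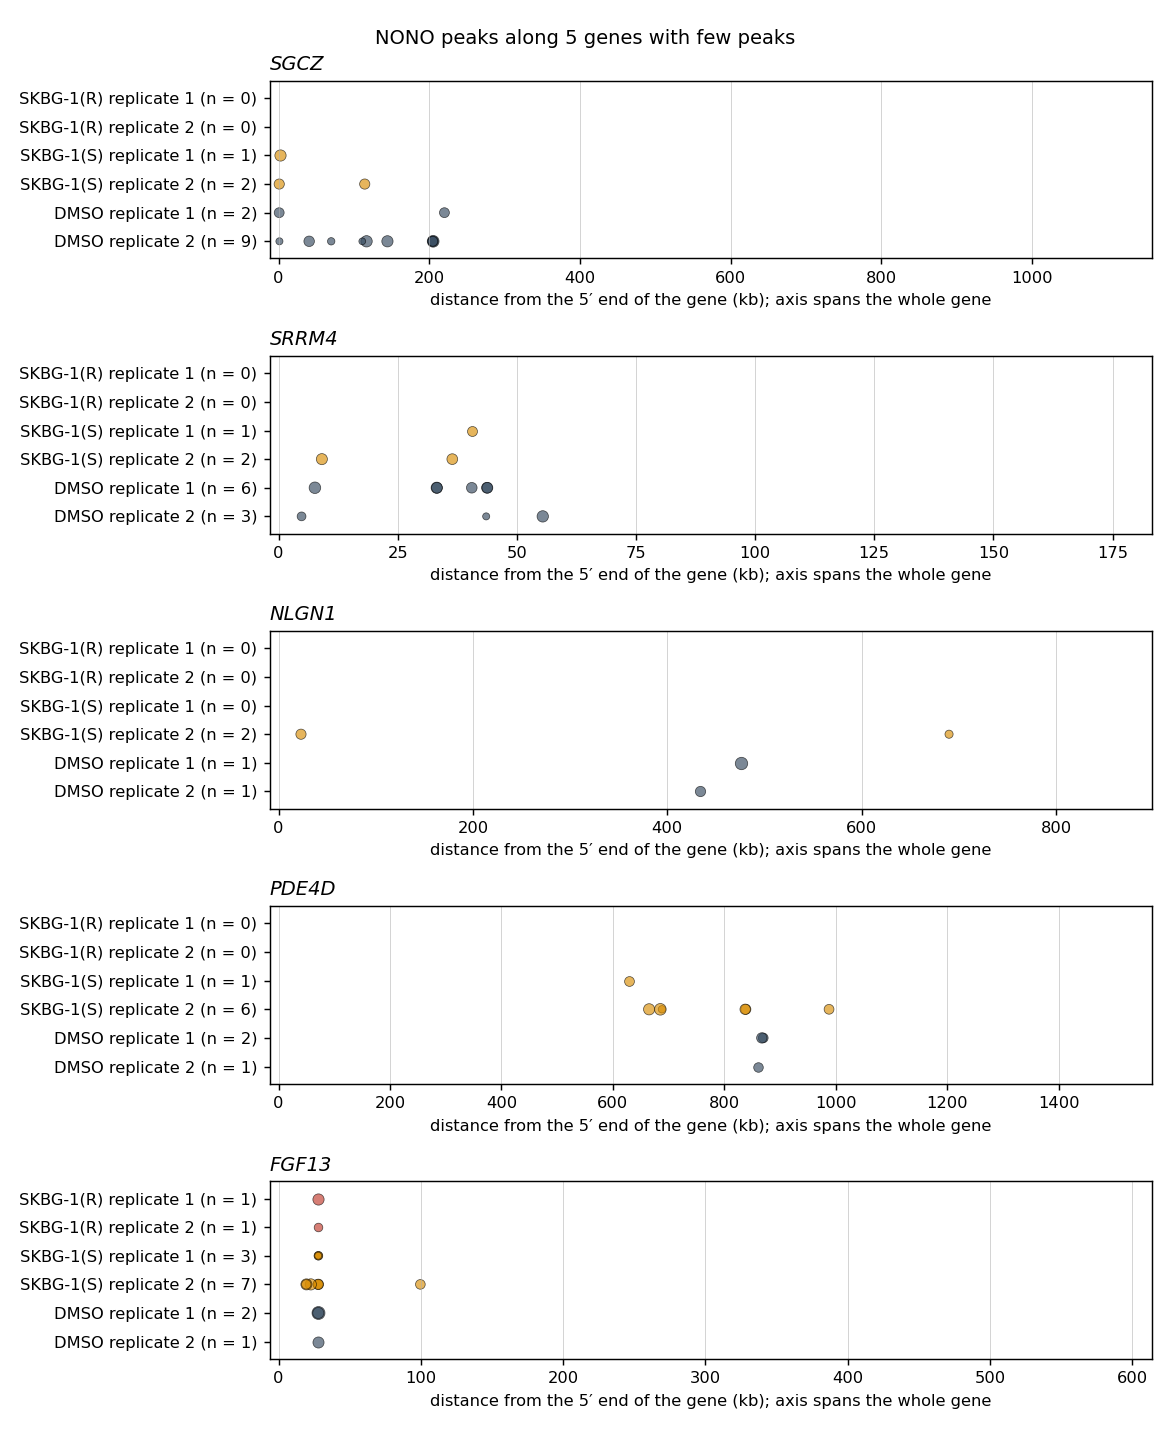
Peaks of SGCZ, SRRM4, NLGN1, PDE4D and FGF13 by distance from the 5′ end of the gene (x axis, kb, spanning each whole gene), with 1 row per list and larger points for higher log2 enrichment over input. The SKBG-1(R) rows are empty for every gene shown but FGF13, whose 2 SKBG-1(R) peaks lie at about 28.0 kb, where the other lists have peaks too.

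FGF13 encodes an intracellular fibroblast growth factor homologue that binds voltage-gated sodium channels. It lies on the minus strand of the X chromosome from 138614731 to 139222777 (ENSG00000129682). It had 1 and 1 peaks with SKBG-1(R), 3 and 7 with SKBG-1(S), and 2 and 1 with DMSO. Per 10000 peaks it had 2.90 ± 3.14 with SKBG-1(R), 20.9 ± 4.67 with SKBG-1(S) and 16.3 ± 19.2 with DMSO (SD, n = 2 each). Its SKBG-1(R) lists overlapped the DMSO lists, and its log2 difference was −1.15, with −0.03 without DMSO replicate 1, −2.28 without DMSO replicate 2 and −0.71 without SKBG-1(R) replicate 2. FGF13 and PPP3CA were the genes among the 7 with a stretch that had peaks in all 6 lists. On FGF13 this site, from 139194658 to 139194943 on the X chromosome in a distal intron 28.0 kb from the start, had 1 and 1 peaks with SKBG-1(R), 3 and 3 with SKBG-1(S), and 2 and 1 with DMSO. Both SKBG-1(R) peaks were there, with log2 enrichments of 3.83 and 3.29. All 4 peaks of FGF13 outside the site were in SKBG-1(S) replicate 2.

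PPP3CA encodes the alpha catalytic subunit of calcineurin, the calcium-dependent phosphatase. It lies on the minus strand of chromosome 4 from 101023409 to 101348278 (ENSG00000138814). It had 6 and 2 peaks with SKBG-1(R), 13 and 20 with SKBG-1(S), and 6 and 25 with DMSO. Per 10000 peaks it had 30.7 and 1.35 with SKBG-1(R), 105 and 50.4 with SKBG-1(S), and 89.7 and 68.0 with DMSO, and both SKBG-1(R) lists lay below the other 4. The log2 difference was −2.52 for SKBG-1(R) against DMSO, −3.81 without SKBG-1(R) replicate 1 and −1.23 without SKBG-1(R) replicate 2.

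The PPP3CA peaks were also placed along the gene. One intronic stretch, from 101345253 to 101346610 on chromosome 4, about 2.15 kb from the start, carried 36 of the 72 peaks, with 6 and 2 with SKBG-1(R), 10 and 8 with SKBG-1(S), and 3 and 7 with DMSO. Beyond 10 kb of the start PPP3CA had 0 and 0 peaks with SKBG-1(R), 3 and 12 with SKBG-1(S), and 3 and 18 with DMSO. All 8 SKBG-1(R) peaks were thus in the stretch near the start, where their numbers overlapped those of DMSO and lay below those of SKBG-1(S). By share of the list, SKBG-1(R) replicate 2 was lower there too, with 2 of 14847 peaks against 3 of 669 and 7 of 3678 with DMSO. A loss only beyond 10 kb is therefore not shown. Of the peaks on other genes of at least 200 kb, 144 of 339 (42.5%) in SKBG-1(R) replicate 1 and 1661 of 2109 (78.8%) in replicate 2 lay beyond 10 kb of the start. The 10 kb limit was chosen after the positions had been seen, so the split is a description. Within the stretch, a region from 101346310 to 101346481 had peaks in 5 lists, with log2 enrichments of 4.00 in SKBG-1(R) replicate 1, up to 4.25 and 4.89 in the SKBG-1(S) lists, and up to 3.85 and 4.44 in the DMSO lists. The highest peak on the gene, at a log2 enrichment of 5.53, was in DMSO and in the same stretch.

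**Figure D3:**
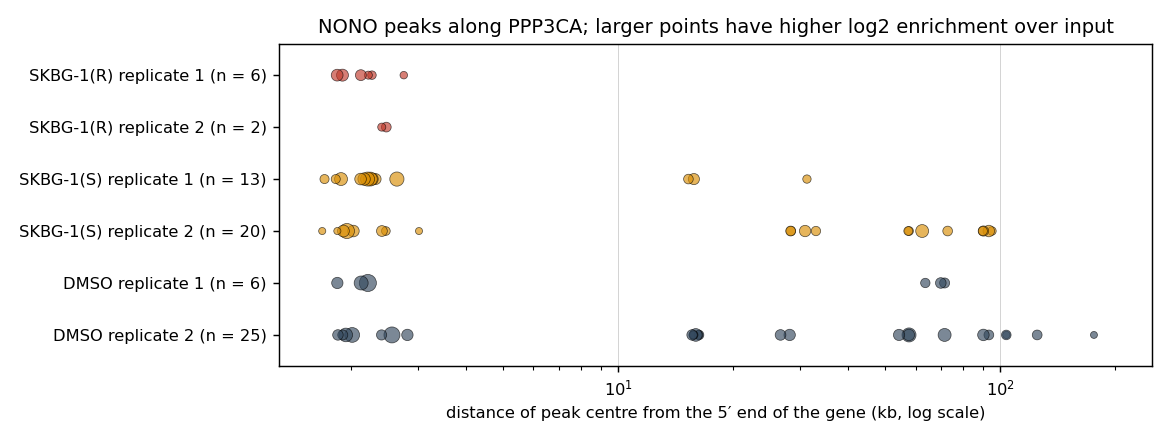
PPP3CA peaks by distance of the peak centre from the 5′ end of the gene (x axis, kb, log scale), with 1 row per list and larger points for higher log2 enrichment over input. All 6 and 2 peaks of the SKBG-1(R) lists lie within 10 kb of the start, while 3 and 12 SKBG-1(S) peaks and 3 and 18 DMSO peaks lie farther along.

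PTPRN2 encodes a phosphatase-like receptor protein of dense-core secretory vesicles. It lies on the minus strand of chromosome 7 from 157539056 to 158587788 (ENSG00000155093). It had 1 and 67 peaks with SKBG-1(R), 7 and 19 with SKBG-1(S), and 4 and 37 with DMSO. Per 10000 peaks it had 5.12 and 45.1 with SKBG-1(R), 56.6 and 47.9 with SKBG-1(S), and 59.8 and 100.6 with DMSO. Both SKBG-1(R) lists lay below the other 4 by this measure, replicate 1 far below and replicate 2 within 3 peaks per 10000 of SKBG-1(S) replicate 2. The log2 difference was −1.91 for SKBG-1(R) against DMSO, −0.73 without SKBG-1(R) replicate 1 and −3.09 without SKBG-1(R) replicate 2. With the lists unscaled it was −0.09.

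The positions on PTPRN2 also differed, although with SKBG-1(R) they rest on replicate 2, since replicate 1 had 1 peak. In SKBG-1(R) replicate 2, 14 of the 67 peaks lay within 10 kb of the start, 27 between 10 and 100 kb, 26 between 100 and 300 kb and 0 beyond 300 kb. Beyond 300 kb the SKBG-1(S) lists had 4 and 4 peaks and the DMSO lists 2 and 8, although these lists were shorter. All but 2 of these fell in a stretch of 1654 nt from 158147516 to 158149169, about 439.9 kb from the start, which had 0 and 0 peaks with SKBG-1(R), 3 and 4 with SKBG-1(S), and 2 and 7 with DMSO. One region there, from 158147516 to 158147633, had a peak in each of those 4 lists, with log2 enrichments of 4.20 and 4.57 with SKBG-1(S) and 3.63 and 3.55 with DMSO. Other genes of at least 200 kb had peaks as far as 896 kb from their start in SKBG-1(R) replicate 2, but their share beyond 300 kb was not taken. These limits in kb were also chosen with the positions known.

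Nearer the start, some PTPRN2 regions had peaks in several lists, although over the whole gene 63 of 85 regions came from 1 list alone. A region from 158361011 to 158361103, 226.7 kb from the start, had peaks in every list but SKBG-1(R) replicate 1, with a log2 enrichment of 5.34 in SKBG-1(R) replicate 2, 4.72 and 4.97 with SKBG-1(S), and 5.32 and 7.85 with DMSO. The last was the highest of any peak on the 7 genes. Another region, from 158587062 to 158587171 and 0.662 kb from the start, had peaks in both SKBG-1(R) lists (log2 enrichment 3.69 and 3.95), in SKBG-1(S) replicate 2 (4.54) and in DMSO replicate 2 (4.70). It was the only region of the 7 genes with a peak in both SKBG-1(R) lists. A stretch of 4363 nt 141.3 kb from the start held 11 peaks, of which SKBG-1(R) replicate 2 supplied 10 and DMSO replicate 2 the other.

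**Figure D4:**
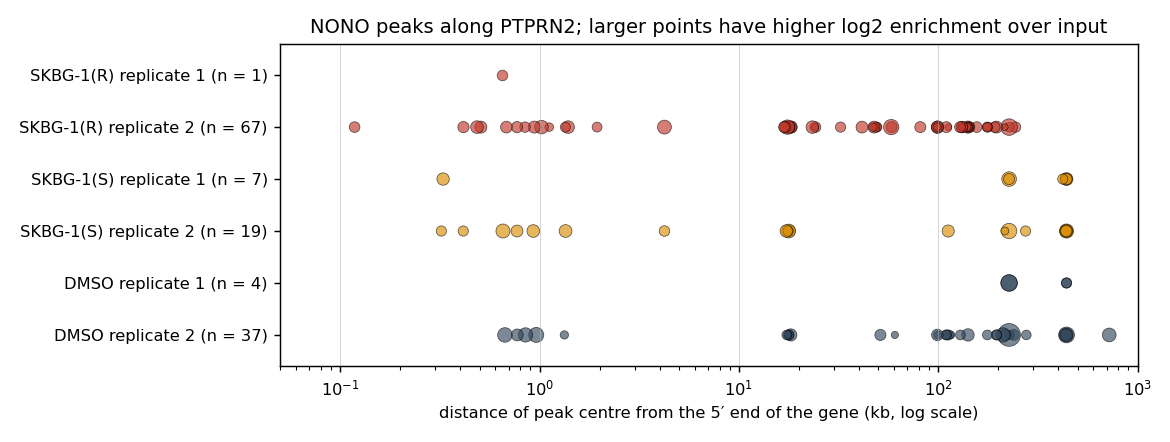
PTPRN2 peaks by distance of the peak centre from the 5′ end of the gene (x axis, kb, log scale), with 1 row per list and larger points for higher log2 enrichment over input. The 67 peaks of SKBG-1(R) replicate 2 end at 244.0 kb, while both SKBG-1(S) lists and both DMSO lists have peaks at about 440 kb.

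The overlap of single peaks was counted from the side of the DMSO lists. Of the peaks on the 7 genes, 7 of 23 in DMSO replicate 1 (30.4%, Wilson 95% interval 15.6 to 50.9) and 23 of 77 in DMSO replicate 2 (29.9%, 20.8 to 40.8) were overlapped by a peak of either SKBG-1(R) list. Of the peaks on all other genes these were 519 of 646 (80.3%) and 2394 of 3601 (66.5%). SKBG-1(S) peaks overlapped 10 of 23 (43.5%, 25.6 to 63.2) and 25 of 77 (32.5%, 23.1 to 43.5) of the DMSO peaks on the 7 genes, against 486 of 646 (75.2%) and 1583 of 3601 (44.0%) on all other genes. The genes were chosen by having fewer peaks in the SKBG-1(R) lists than in the DMSO lists, so a low share overlapped by SKBG-1(R) is part of the choice, and the SKBG-1(S) shares rest on the same DMSO lists. Without PTPRN2, SKBG-1(R) peaks overlapped 5 of 19 (26.3%) and 4 of 40 (10%), and SKBG-1(S) peaks 6 of 19 (31.6%) and 10 of 40 (25%). All overlapped peaks for SKBG-1(R) were on PTPRN2, FGF13 or PPP3CA, since the other 4 genes had no SKBG-1(R) peak. Of DMSO peaks with a log2 enrichment of at least 4, SKBG-1(R) peaks overlapped 5 of 6 (83.3%, 43.6 to 97.0) in DMSO replicate 1 and 6 of 17 (35.3%, 17.3 to 58.7) in replicate 2, against 169 of 190 (88.9%) and 558 of 738 (75.6%) on all other genes. SKBG-1(S) peaks overlapped 5 of 6 (83.3%, 43.6 to 97.0) and 9 of 17 (52.9%, 31.0 to 73.8) of these higher DMSO peaks. On all other genes these were 153 of 190 (80.5%) and 394 of 738 (53.4%). The SKBG-1(S) shares were close to those of all other genes, but 6 and 17 peaks are too few to show that the lower share was absent. Peaks of 1 gene share their transcript, so the intervals cover counting error only.

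**Figure D5:**
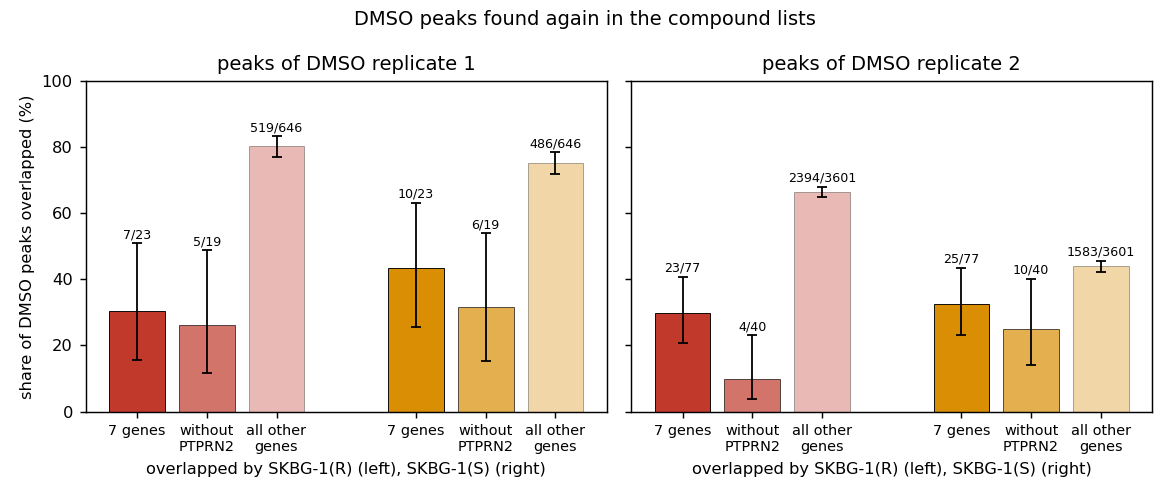
Share of DMSO peaks (y axis, %) overlapped by at least 1 nt on the same strand by a peak of either SKBG-1(R) list or either SKBG-1(S) list, for peaks of the 7 genes, of the genes without PTPRN2 and of all other genes. Bars show the share, whiskers the Wilson 95% interval and labels the overlapped peaks over all peaks; SKBG-1(R) overlapped 30.4% and 29.9% for the 7 genes against 80.3% and 66.5% for all other genes.

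The SKBG-1(S) peaks were set against SKBG-1(R) in the same way. Peaks of the SKBG-1(R) lists overlapped 11 of 26 (42.3%) and 18 of 58 (31.0%) of the SKBG-1(S) peaks on the 7 genes, against 1004 of 1211 (82.9%) and 2643 of 3909 (67.6%) on all other genes. DMSO peaks overlapped 16 of 26 (61.5%) and 24 of 58 (41.4%) of them, against 736 of 1211 (60.8%) and 1668 of 3909 (42.7%) on all other genes. Without PTPRN2, DMSO peaks overlapped 12 of 19 (63.2%) and 11 of 39 (28.2%), and SKBG-1(R) peaks 10 of 19 (52.6%) and 7 of 39 (17.9%). Of 173 merged regions on the 7 genes, 137 (79.2%) came from 1 list alone, beside 12472 of 16229 (76.9%) on all other genes. A peak in both SKBG-1(R) lists was found in 1 of the 173 regions, in both SKBG-1(S) lists in 8 and in both DMSO lists in 6. On all other genes these were 796, 511 and 192 of the 16229 regions. The 7 genes were picked for having few SKBG-1(R) peaks. Low shares overlapped by SKBG-1(R), and few regions in both SKBG-1(R) lists, are therefore part of the choice.

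SKBG-1(R) and SKBG-1(S) were given at the same dose and time, and 6 of the 7 genes could be compared between them. The fit called 0% of the 478 genes at an adjusted p under 0.05, with 5 genes (1.05%) at an unadjusted p under 0.05. Both SKBG-1(R) lists lay below both SKBG-1(S) lists for 78 of the 478 genes (16.3%) and for all 6 tested here. SGCZ, SRRM4 and PDE4D had no SKBG-1(R) peak, so 1 peak in each SKBG-1(S) list was enough for this. PDE4D and FGF13 reached the 10 peaks needed for the test only with their SKBG-1(S) peaks, 7 of 10 and 10 of 15. That count therefore follows in part from how the genes were picked and filtered. PPP3CA was at −2.43 on the log2 scale (95% interval −4.54 to −0.32, limma unadjusted p = 0.0259, adjusted p = 0.995), with −3.72 without SKBG-1(R) replicate 1 and −1.14 without SKBG-1(R) replicate 2. FGF13 was at −1.83 (−4.15 to 0.49), PDE4D at −1.79 (−4.12 to 0.54) and PTPRN2 at −1.37 (−3.43 to 0.69). SGCZ was at −1.27 (−3.50 to 0.96) and SRRM4 at −1.27 (−3.68 to 1.13). The limma adjusted p was 0.995 for each of these 6 genes, so none passed over the whole table, and the wide intervals do not show that the compounds act alike. The comparison shares the SKBG-1(R) lists on which the genes were picked, so its values are not separate support. PTPRN2 was at 0.066 in this comparison with unscaled lists, −0.19 without SKBG-1(R) replicate 1 and −2.55 without SKBG-1(R) replicate 2. Without SKBG-1(R) replicate 1 the fit called 24 genes here, 23 of them higher with SKBG-1(R).

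SKBG-1(S) against DMSO shares the DMSO lists with the comparison that picked the genes. The fit again called 0% of the 478 genes, with 6 genes (1.26%) at an unadjusted p under 0.05. Both SKBG-1(S) lists lay below both DMSO lists for 23 of the 478 genes (4.81%), and for SGCZ, SRRM4 and PTPRN2 of the 6 tested here. SGCZ and SRRM4 reached the 10 peaks needed for the test only with their DMSO peaks, 11 of 14 and 9 of 12. SGCZ was at −1.52 (95% interval −3.75 to 0.71) and SRRM4 at −1.65 (−4.06 to 0.75). PTPRN2 was at −0.54 (−2.60 to 1.52), PPP3CA at −0.09 (−2.20 to 2.02) and PDE4D at −0.01 (−2.33 to 2.32). FGF13 was at 0.68 (−1.65 to 3.00). The limma adjusted p was 1 for each, and the direction for PDE4D, FGF13 and PPP3CA changed with the processing, including the scaling of the lists.

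The median log2 difference over the 6 tested genes was −2.21 for SKBG-1(R) against DMSO, beside 0.23 over all 478 genes. For SKBG-1(S) against DMSO it was −0.31 beside 0.14, and for SKBG-1(R) against SKBG-1(S) −1.58 beside −0.08. Without scaling of the lists, none of the 6 genes changed direction for SKBG-1(R) against DMSO, the comparison on which they were picked.

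By class, 261 of the 262 peaks were intronic. The exception was a PTPRN2 peak of SKBG-1(R) replicate 2 annotated to coding sequence, 0.118 kb from the start, with a log2 enrichment of 3.70. On all other genes 87.0% to 91.1% of the peaks of a list were intronic. The distal intron class held 62.5% and 91.4% of the peaks on the 7 genes with SKBG-1(R), 80.8% and 81.0% with SKBG-1(S), and 91.3% and 92.2% with DMSO. On all other genes it held 46.6% and 71.7% with SKBG-1(R), 49.8% and 59.2% with SKBG-1(S), and 50.6% and 68.2% with DMSO, so the share was higher on the 7 genes in each of the 6 lists. The share on other long genes alone was not taken. Height did not set the genes apart in the same way. The median log2 enrichment on the 7 genes was 3.72 and 3.68 with SKBG-1(R), 3.82 and 3.62 with SKBG-1(S), and 3.72 and 3.64 with DMSO. On all other genes it was 3.77 and 3.75 with SKBG-1(R), 3.76 and 3.64 with SKBG-1(S), and 3.72 and 3.59 with DMSO.

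Summed over other long genes, the peaks per 10000 of the 3 groups overlapped. The other 201 genes of at least 200 kb with a peak held 1736 and 1420 peaks per 10000 with SKBG-1(R), 1690 and 1918 with SKBG-1(S), and 1734 and 1900 with DMSO. Of these, 54 were tested, and 0 passed in any of the 3 comparisons, in which 0% of all 478 genes passed. For SKBG-1(R) against DMSO their median log2 difference was 0.22, and 24 of the 54 were below 0.

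Genes related to the 7 by role mostly had no NONO peaks, but the share over all genes was not taken beside these counts. Only 0 to 2 genes of each list were tested. None passed in either direction, where 0% of all 478 genes passed in any of the 3 comparisons. Of 16 other genes of the sarcoglycan and dystrophin complex, only DTNA had a peak, and of 13 FGF homologous factor and sodium channel genes none did. Among neuronal splicing regulators 4 of 24 had a peak, and PTBP1, a splicing repressor, was tested at 0.51 for SKBG-1(R) against DMSO, on 1 and 15 peaks against 0 and 4 with DMSO. Of the genes of dense-core vesicles and secretion 3 of 22 had a peak, and UNC13A, a vesicle priming factor, held 12 and 12 with SKBG-1(R) against 6 and 9 with DMSO (−0.86). Of the synaptic adhesion genes 2 of 31 had a peak, and PTPRF, a receptor phosphatase, held 1 and 43 with SKBG-1(R) against 0 and 4 with DMSO (1.10). Among cAMP signalling genes 5 of 35 had a peak, and the adenylyl cyclase gene ADCY6 held 13 and 11 with SKBG-1(R) against 11 and 3 with DMSO (−0.67). In the calcineurin and NFAT list 4 of 18 had a peak, with the calmodulin gene CALM2 at −0.63 and the kinase gene DYRK1A at 0.60. In marker lists longer than the short sets above, 1 of 16 neuroendocrine markers other than SRRM4 had a peak (ONECUT2), and 4 of 17 prostate luminal markers did.

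Among the genes whose peaks per 10000 followed the mean of the 6 tested genes most closely over the 6 lists were AFF3 (Pearson r = 0.985), GPR35 (0.978), HNRNPF (0.954) and EHMT1 (0.945). These values describe 6 lists that share their lengths and have no p. AFF3, a nuclear protein gene of 597 kb, held 1 and 0 with SKBG-1(R), 9 and 21 with SKBG-1(S), and 17 and 31 with DMSO. GPR35 and HNRNPF are short, at 25.8 and 23.5 kb. Among the 6 genes themselves, the correlation with the mean of the others was 0.853 for SGCZ, 0.861 for SRRM4, 0.863 for PDE4D, 0.726 for FGF13, 0.718 for PPP3CA and 0.465 for PTPRN2, which followed the others least.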

How the data were processed

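NONO was immunoprecipitated from crosslinked 22Rv1 cells, and each of the 6 immunoprecipitations has an input library, 12 libraries in all. Groups and replicate numbers came from the sample titles. The authors deposited 1 peak list per replicate. The tools listed are STAR 2.4.0i and cutadapt 1.9 and the builds hg19, GRCh38 and hg38, per the submitters' processing notes. The peak caller is not given in the sources used here. Per peak, the authors deposited a −log10 p (from 3 to a cap of 400) and a log2 enrichment over input (at least 3). Both are the authors' values and were used only to describe, rank or filter peaks within a list. The build is GRCh38, since 35 of 36 transcripts annotated to the 7 genes were in GENCODE 29 with the same coordinates within 1 nt, and GENCODE 29 gave gene positions.

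Peaks were counted by annotated gene name. Peaks with joint names (344, 1.31%) went to the joint name, and intergenic peaks (60, 0.228%) were left out of the tests but counted in list length. Log2 peaks per 10000, with a prior count of 2 scaled to list length, were fitted over all 6 lists with limma 3.58.1 (trended variance, R 4.3.3), and p-values were adjusted by Benjamini-Hochberg over the 478 genes with at least 10 peaks. The method was tested on simulated counts for 478 genes, 200 of them changed, with a spread that was set and not taken from these lists. Recovery of changes was checked on the genes with the most peaks, so the simulation does not speak for genes with few peaks. P-values measure the spread between 2 lists a group, which may be technical. Regions were merged and overlaps counted at 1 nt or more on the same strand. Stretches join peaks up to 5 kb apart. The genes and the related gene lists were chosen with earlier results of these data known. All 7 genes, the 5 genes with the closest pattern, and the most peak-rich genes of each related list were named by rule, and 1 item that the rule names is not reported here. Base composition and motifs of intronic peaks were not analysed here.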

Additional observations from a re-analysis of the deposited data

How the results depend on the processing

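For SKBG-1(R) against DMSO, each of the 6 tested genes kept its negative log2 difference under every alternative that gave a value, from −4.67 for SRRM4 to −0.03 for FGF13. The genes were picked on this comparison, so the kept direction is part of the choice. PTPRN2 and PPP3CA gave a value under 16 alternatives, and SGCZ, SRRM4, PDE4D and FGF13 under 13. Against SKBG-1(S), SKBG-1(R) was positive only for PTPRN2 with unscaled lists (0.066). For SKBG-1(S) against DMSO the direction changed for PDE4D with unscaled lists (0.50) or a prior count of 0.5 (0.16), and it ran from −1.13 to 1.12 leaving out a list. It changed for FGF13 with the median of the tested genes set to 0 (−0.16; −0.45 to 1.80 leaving out a list), and for PPP3CA with unscaled lists (0.31; −0.59 to 0.41 leaving out a list). Unscaled lists moved the median of all genes for SKBG-1(R) against DMSO to 1.10. The count of called genes, 0 as reported, was 1 for SKBG-1(R) against DMSO with at least 5 peaks per gene, with summed width, or with the replicate block, and 0 to 23 leaving out a list. For SKBG-1(R) against SKBG-1(S) it was 0 to 24, the highest without SKBG-1(R) replicate 1 in both cases. Replicate numbers come from the titles, which name no shared batch, and only 2 numbers exist. Deviations of same-numbered lists correlated at 0.419 to 0.574 over genes, and whether these lists form pairs cannot be told. The block changed no other count of calls. Genes at an unadjusted limma p under 0.05 were 37 with it for SKBG-1(R) against DMSO, beside 15 without it. They were 21 beside 6 for SKBG-1(S) against DMSO, and 31 beside 5 for SKBG-1(R) against SKBG-1(S).

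The summed peaks per 10000 of the 7 genes were 0.159 times those of DMSO with SKBG-1(R), 0.644 times with SKBG-1(S), and 0.247 times for SKBG-1(R) over SKBG-1(S). At a log2 enrichment of at least 4 the ratios with SKBG-1(R) were 0.0816 over DMSO and 0.12 over SKBG-1(S). Without PTPRN2, a choice made after seeing the data, they were 0.0964 and 0.15. For SKBG-1(S) over DMSO the ratio was 0.754 at a −log10 p of at least 5 and 0.518 to 0.851 leaving out a list. The share of DMSO peaks overlapped moved at a log2 enrichment of at least 4 to 83.3% in DMSO replicate 1 with either compound, and to 52.9% in DMSO replicate 2 with SKBG-1(S). In DMSO replicate 2 it was 10% for SKBG-1(R) without PTPRN2. The log2 difference in list length was 0.50 for SKBG-1(S) against DMSO (−0.73 to 1.73 leaving out a list) and 1.28 for SKBG-1(R) against SKBG-1(S) (−0.18 to 2.74). The cause of these changes was not tested. Depth is unknown, and with 2 lists a group and 4 to 15 peaks on 5 of the 7 genes, single peaks decide most of the values.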
